A study of Mus musculus with 20 samples.

Results

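The subunits of mitochondrial complexes II to V and cytochrome c were described in the left ventricle of mice given doxorubicin (DOXO), folic acid (FA), both or neither. The set held 34 genes, 4 of complex II, 9 of complex III, 13 of complex IV and 7 of complex V together with the cytochrome c gene Cycs. A gene was taken where the array annotation of a transcript cluster, the summary of the probes of a gene over its exons, gave its symbol and no other. Where a gene had several such clusters, as 7 of the 34 did, the cluster with the highest mean signal was used. All 34 listed genes were found, out of 19937 genes with such a cluster and 34760 clusters in all. Complex V symbols are given as the array names them, so that Atp5a1, Atp5b, Atp5c1, Atp5d, Atp5h, Atp5j and Atp5o are the genes now called Atp5f1a, Atp5f1b, Atp5f1c, Atp5f1d, Atp5pd, Atp5pf and Atp5po.

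The study asked whether FA protects the heart against DOXO, an anthracycline used against cancer that damages heart muscle. Male C57BL/6 mice, 2 months old by the labels, were fed a soft diet with placebo or with 10 mg FA per day, from 7 days before the injection to day 10. The sham group (n = 4) had the placebo diet and no DOXO, and the FA-sham group (n = 4) the FA diet and no DOXO. The DOXO group (n = 6) had the placebo diet and a single intraperitoneal dose of 20 mg/kg, and the FA-DOXO group (n = 6) had the FA diet and that dose. Tissue from the injected mice comes from animals that lived to the end of the experiment. Each mouse had an array of its own, and the deposited values are log2 signals. In a piece of ventricle, fewer cells of a type and less RNA per cell cannot be told apart.

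The respiratory chain passes electrons from NADH and succinate to oxygen and stores the energy as a proton gradient across the inner mitochondrial membrane. Complex II is the succinate dehydrogenase that also works in the citric acid cycle, complex III passes electrons to cytochrome c, complex IV reduces oxygen, and complex V uses the gradient to make ATP. Heart muscle depends on this chain for most of its ATP and is densely packed with mitochondria. Several subunits of complex IV exist as a form made in heart and skeletal muscle and a form made in most tissues, among them the pairs Cox6a2 and Cox6a1, Cox7a1 and Cox7a2, and Cox8b and Cox8a.

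The arrays did not share a spread of signals. The SD over all clusters ran from 0.863 to 1.5, and it was above 1.1 on 8 arrays, here called wide, and below on 12, here called narrow. Of the wide arrays 3 came from sham mice, 1 from an FA-sham mouse and 2 each from the injected groups, so the groups were unequal in this respect, with a mean SD of 1.27 in sham, 0.957 in FA-sham, 1.13 in DOXO and 1.04 in FA-DOXO mice. Values from wide arrays alone rest on 1 mouse for FA-sham, and those from narrow arrays alone on 1 mouse for sham. The median of an array lay between 6.23 and 6.66, and the mean signal of all 34 genes was above the highest of these medians. Cardiomyocyte markers averaged 11.96 on the wide and 9.07 on the narrow arrays, and 17 of 17 of them rose with the array SD. Endothelial markers did so in 10 of 10 and averaged 8.21 and 6.82, whereas 9 of 9 T, NK and B cell markers fell with it, from a mean of 6.36 on the narrow to 5.84 on the wide arrays. Why the arrays differed in spread was not tested.

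The subunit genes followed the spread of the arrays more than they followed any group. Within groups, 34 of 34 rose with the array SD in limma (adjusted p under 0.05 over all clusters), where 29.8% of all clusters did. The median slope was 5.52 log2 units per unit of SD against -0.53 over all clusters. All 34 genes had means above the array medians, and the SD was taken over all clusters, these genes included. No comparison was made with clusters of like signal, so the count does not set these genes apart from others with high signals. The median signal of the 34 genes on an array went from 7.54, in an FA-sham mouse, to 12.23, in a DOXO mouse. Their mean was 11.50 on the wide and 9.18 on the narrow arrays. A straight line did not describe the relation fully, since the median rose steeply on the narrow arrays and levelled off on the wide ones. The residual SD of this median was 1.47 with groups alone, 0.748 with the array SD, and 0.305 with the array SD and its square.

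**Figure D1:**
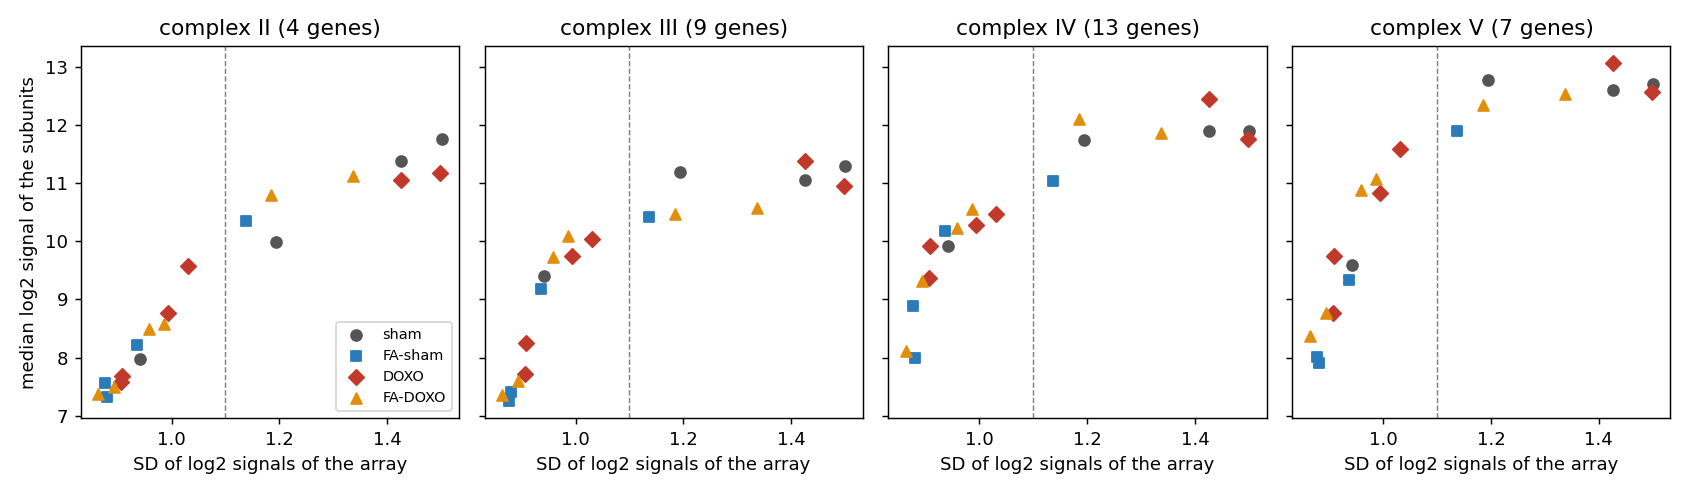
Median log2 signal of the subunit genes of each complex on each of the 20 arrays, against the SD of all log2 signals of that array. Each point is a mouse, its colour gives the group, and the dashed line at 1.1 parts narrow from wide arrays. In all 4 complexes the points of the 4 groups lie along a shared curve that rises steeply on the narrow arrays and flattens on the wide ones.

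The slope differed from gene to gene. It was steepest for Atp5a1, the alpha subunit of the catalytic head of complex V, at 8.93 ± 0.77 (SE), followed by the flavoprotein subunit Sdha of complex II at 8.17 ± 0.56 and the core subunit Uqcrc2 of complex III at 8.00 ± 1.11. Sdha was at 10.92 ± 1.07 (SD, n = 8) on the wide and 7.68 ± 0.57 (SD, n = 12) on the narrow arrays. At the other end was Cox4i2, the form of subunit 4 of complex IV known to be induced at low oxygen, with 0.57 ± 0.24 and an adjusted p of 0.0349 in limma. Cox4i2 also had the lowest mean signal of the 34 genes, 7.07. Cycs had a slope of 2.39, and Cox7b, Cox6c, Cox7a1, Uqcrq and Cox8b had slopes of 2.75 to 3.06. By complex the median slope was 6.56 in complex II, 6.16 in complex III, 3.69 in complex IV and 6.29 in complex V. Complex I, of which 34 of 36 listed genes were measured, had a median slope of 4.69, with 34 of 34 genes rising.

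**Figure D2:**
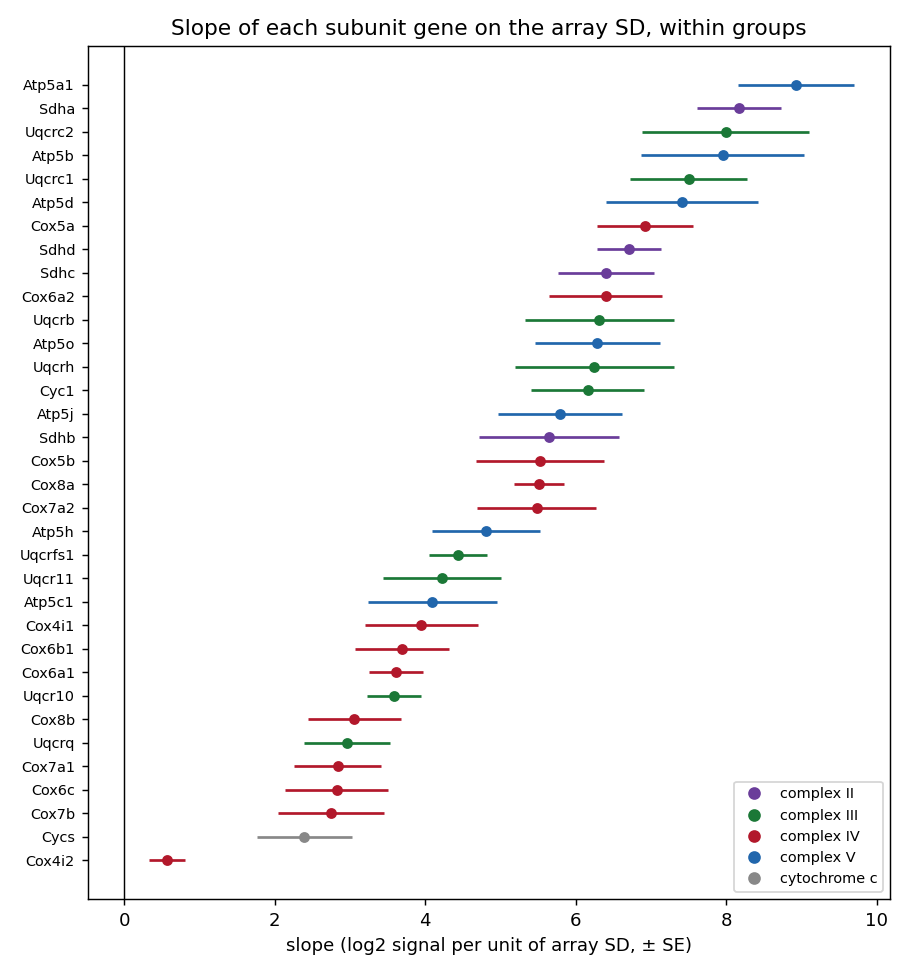
Slope of the log2 signal of each of the 34 genes on the array SD within groups, from limma over 20 arrays, with bars of 1 SE and colours for the complexes. All 34 slopes are above 0, from 0.57 for Cox4i2 to 8.93 for Atp5a1, and genes of complex IV make up much of the lower end.

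Because of this, differences between groups come from a model in which the array SD was a covariate, and values from the model that lacks it are marked as without the covariate. A gene is said to have risen or fallen where its unadjusted p was under 0.01, the threshold of the study's methods. Benjamini-Hochberg adjusted values over all clusters follow for the genes of the set called in the model with the covariate, and for only some of the other calls. In these 2 models no single gene of the set passed an adjusted p of 0.05 in any comparison between groups. Of all clusters 0.17% did so between DOXO and sham, 0.0259% between FA-DOXO and FA-sham, 0.227% in the average over diets and 0% in the other comparisons, and without the covariate 0.00288%, 0.00288%, 0.0115% and 0%.

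DOXO against sham was the comparison that asked what the drug did to the chain on the placebo diet. With the array SD in the fit, 2 of the 34 genes fell and 0 rose, both of complex IV, Cox7a1 and Cox4i2. Over all clusters 4.14% passed, of which 1% of all fell and 3.14% rose. The median difference of the 34 genes was -0.15 log2 units against 0.04 over all clusters, with 22 genes below 0, where 39.1% of all clusters were, and 12 above. Without the covariate the median was -0.81 against 0.10, and 34 of 34 genes were below 0, where 38% of all clusters were, but 1 gene passed the threshold, Cox4i2, among 1.05% of all clusters in either direction. No gene of the set had groups that did not overlap, a state reached by 0.138% of clusters with DOXO lower and 0.213% with DOXO higher.

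Of the 4 complex II genes, 0 passed the threshold, and the median difference between DOXO and sham was -0.02 (-0.93 without the covariate). The smallest p was that of Sdhb, the iron-sulphur subunit, whose signals were 12.08, 12.03, 11.87 and 9.57 in the sham mice and had a lowest value of 8.45, a median of 9.98 and a highest of 11.87 in the DOXO mice. The difference was -0.49 ± 0.54 (SE, limma, adjusted p = 0.757), and -1.27 ± 0.90 without the covariate. The 3 sham mice on wide arrays were at or above the highest DOXO mouse, and the sham mouse on a narrow array was below the DOXO median. Sdha differed by 0.29 ± 0.32, Sdhc by -0.13 ± 0.37 and Sdhd by 0.09 ± 0.25, the last 2 being the membrane anchors of the complex. Without the covariate these 3 were at -0.84, -1.01 and -0.84, so that the sign of Sdha and Sdhd turned.

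Complex III had 0 of 9 genes past the threshold in this comparison, 8 below 0, and a median of -0.20 (-1.06 without the covariate). Uqcr11, a small accessory subunit, had the smallest p. Its signals were 12.27, 11.65, 11.78 and 9.98 in the sham mice, and ran from 8.77 over a median of 10.18 to 12.23 in the DOXO mice, so the groups overlapped over most of their range. The difference was -0.46 ± 0.45 (adjusted p = 0.720 in limma), and -1.05 ± 0.70 without the covariate. The core subunits Uqcrc1 and Uqcrc2 differed by -0.18 ± 0.45 and -0.27 ± 0.64, the Rieske protein Uqcrfs1 by -0.16 ± 0.22 and cytochrome c1, encoded by Cyc1, by -0.31 ± 0.43. Without the covariate these were at -1.22, -1.37, -0.77 and -1.16 in the same order. Cycs, the mobile carrier between complexes III and IV, had signals of 14.13, 13.63, 13.63 and 12.57 in the sham mice and of 12.08 to 13.89, with a median of 12.81, in the DOXO mice. Its difference was -0.30 ± 0.37 (adjusted p = 0.792 in limma; -0.63 without the covariate), and the groups overlapped.

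In complex V, 0 of 7 genes passed, and 6 of 7 differences were above 0 with a median of 0.08 (-0.80 without the covariate, where 7 of 7 were below 0). The direction of this complex therefore depended on whether the array SD was in the fit. Atp5h, a subunit of the peripheral stalk, had the smallest p, with -0.26 ± 0.42 (adjusted p = 0.847 in limma) and -0.93 without the covariate. Its signals were 12.78, 12.71, 12.61 and 10.77 in sham and 9.81 to 13.03, with a median of 11.16, in DOXO mice, and the highest signal of all was in a DOXO mouse. The catalytic subunits Atp5a1 and Atp5b differed by 0.23 ± 0.45 and 0.08 ± 0.63, and by -1.01 each without the covariate. Over the 34 genes the SEs with the covariate ran from 0.14 to 0.64 log2 units, which sets the size of change that could have been seen.

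**Figure D3:**
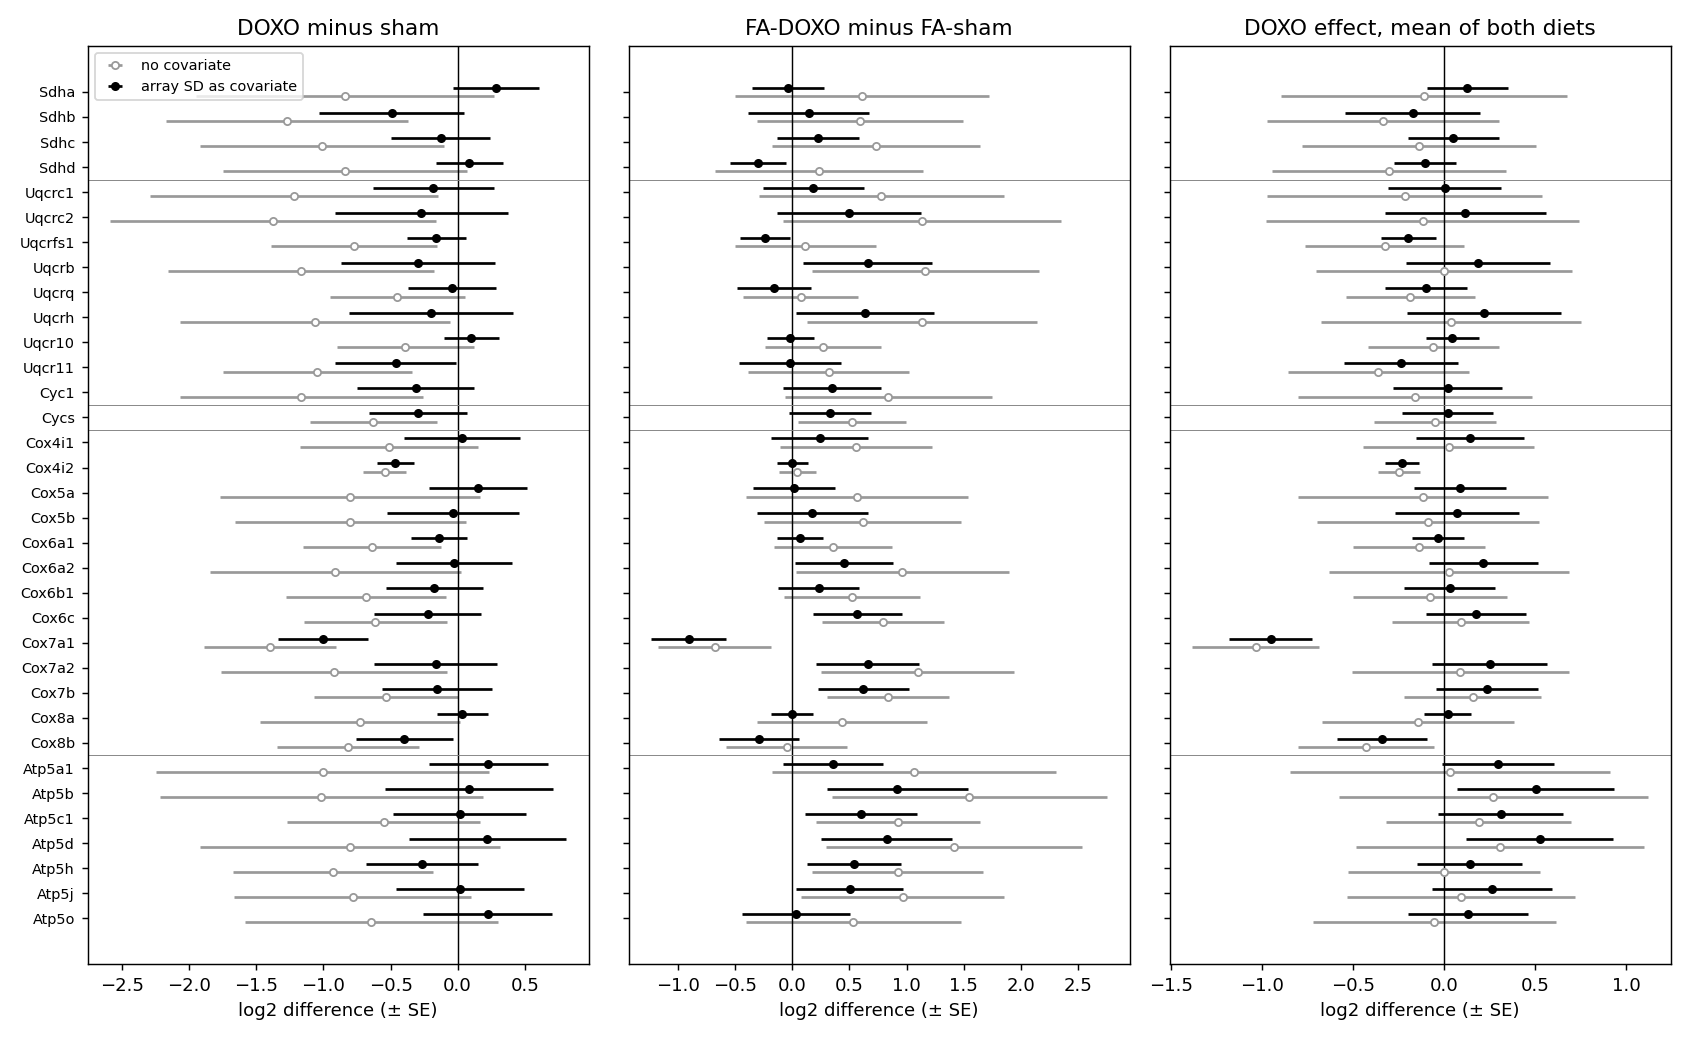
Log2 differences of the 34 genes, grouped by complex, for DOXO minus sham (left), FA-DOXO minus FA-sham (middle) and the mean of these 2 differences (right). Filled points come from the model holding the array SD, open points from the model lacking it, and bars are 1 SE. Open points lie mostly left of 0 in the left and right of 0 in the middle panel, filled points lie nearer to 0, and Cox7a1 is below 0 in all 3 panels in both models.

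Complex IV held the 2 genes that fell. Cox7a1, the muscle form of subunit 7a, had signals of 13.63, 12.87, 13.10 and 11.74 in the sham mice. In the DOXO mice the lowest was 9.99, the median 11.45 and the highest 12.96. Of the 6 DOXO mice, the 4 on narrow arrays were below the lowest sham mouse, which was the only sham mouse on a narrow array. The 2 DOXO mice on wide arrays were within the sham range. The difference was -1.004 ± 0.33 with the covariate (adjusted p = 0.219 in limma) and -1.40 ± 0.49 without it (adjusted p = 0.647). On the wide arrays alone it was -0.81 and not past the threshold. On the narrow arrays alone, with 1 sham mouse, it was -0.78. Leaving out sham replicate 1, the highest, gave -0.65, and leaving out DOXO replicate 5 gave -0.76, and in both cases the call was lost. The call was also lost without sham replicate 4 (-1.09), DOXO replicate 2 (-0.99) or DOXO replicate 6 (-0.87). Over 19 other settings the difference stayed below 0, from -1.49 to -0.63, and kept the call in 8. Choosing the cluster with the lowest mean repeated the main fit, since Cox7a1 has 1 cluster. Keeping only clusters above the median signal, or with 1 gene symbol, left the difference unchanged.

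Cox4i2 had signals of 7.84, 7.57, 7.61 and 6.95 in the sham mice, and of 6.81 to 7.13 with a median of 6.89 in the DOXO mice. Its mean over all arrays, 7.07, was the lowest of the set and near the array medians of 6.23 to 6.66. The 3 sham mice on wide arrays were above every DOXO mouse, and the sham mouse on the narrow array was among them. The difference was -0.47 ± 0.14 (adjusted p = 0.176 in limma) with the covariate and -0.54 (adjusted p = 0.647) without. On the wide arrays alone, with 3 sham and 2 DOXO mice, it was -0.66. On the narrow arrays alone, with 1 sham and 4 DOXO mice, it was -0.03. It was -0.33 without sham replicate 1 and -0.37 without DOXO replicate 5, neither past the threshold. Over the 19 other settings it stayed below 0 and kept the call in 13. The choice of cluster and the filters on clusters left it unchanged here too. Cox4i1, the common form of this subunit, differed by 0.04 ± 0.43 (-0.51 without the covariate). The other 10 genes of complex IV lay between -0.40 and 0.15, with a median over the complex of -0.15 (-0.73 without the covariate).

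Under FA the comparison of DOXO with no DOXO moved no gene past the threshold. Between FA-DOXO and FA-sham 0 of 34 genes passed with the covariate, where 1.07% of all clusters did, and the smallest p was that of Cox7a1. The median difference was 0.23 against -0.02 over all clusters, and without the covariate it was 0.61 against -0.04 with 0 genes past the threshold, where 0.268% of all clusters were. All 7 genes of complex V were above 0, with a median of 0.54. Atp5b, the catalytic beta subunit, had 0.92 ± 0.62 and Atp5d, the delta subunit of the rotor, 0.83 ± 0.57 (adjusted p = 0.999 for both in limma), and without the covariate 1.55 and 1.42. Complex II had a median of 0.05, complex III of 0.18 and complex IV of 0.18, and Cycs differed by 0.33 ± 0.36. Without the covariate the medians were 0.60, 0.78, 0.56 and, for complex V, 0.97, and Cycs was at 0.52.

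Cox7a1 again had the lowest difference of the set. Its signals were 11.56, 12.10, 11.75 and 12.47 in the FA-sham mice, and 10.27 to 12.34 with a median of 11.20 in the FA-DOXO mice. Of the 6 FA-DOXO mice 4 were below all FA-sham mice, and the 2 FA-DOXO mice within the FA-sham range were those on wide arrays. The difference was -0.90 ± 0.33 (adjusted p = 0.931 in limma) with the covariate and -0.68 ± 0.49 without it. On the wide arrays alone, with 1 FA-sham mouse, it was -0.26. On the narrow arrays alone, with 3 FA-sham mice, it was -0.97 and not past the threshold. In 13 of 19 other settings and with 15 of the 20 mice left out in turn it was likewise not called. It passed with the array SD and its square, at -1.01 (adjusted p = 0.357, the range over the settings being 0.239 to 1.00), and without sham replicate 1 (-0.91), sham replicate 2 (-0.93), DOXO replicate 5 (-0.95), DOXO replicate 6 (-0.88) or FA-DOXO replicate 6 (-1.02). The test of whether the Cox7a1 difference changed with FA gave 0.10 ± 0.47 (adjusted p = 0.968 in limma) and 0.72 without the covariate.

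Averaged over both diets, the difference between mice with and without DOXO rests on 12 against 8 mice. In this average 1 of 34 genes fell and 0 rose, and the gene was Cox7a1. Of all clusters 2.83% passed, of which 0.814% of all fell and 2.01% rose. The difference was -0.95 ± 0.23 log2 units, or 1.94-fold lower with DOXO (adjusted p = 0.118 in limma). Without the covariate the difference was -1.04 ± 0.35 (adjusted p = 1.00), where 0.506% of all clusters passed, and with the array SD and its square -0.99 ± 0.17 (adjusted p = 0.0148). Over its 18 other settings the adjusted p ran from 0.0148 to 1.00. Among the wide arrays alone, with 1 FA-sham mouse, it was -0.54. Among the narrow arrays alone, with 1 sham mouse, it was -0.87. With any 1 of the 20 mice left out it stayed between -1.06 and -0.78 and kept the call. The median over the 34 genes was 0.08 against 0.01 over all clusters, and -0.09 without the covariate. All 7 genes of complex V were above 0 with the covariate, with a median of 0.29, and 5 of 7 without it, with a median of 0.09.

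The subunit pairs of complex IV were compared within each array, as the log2 signal of the muscle form, or of Cox4i2, minus that of the common form. Such a difference shows unequal change and not which gene changed, and its absolute value depends on the probes. Cox7a1 minus Cox7a2 was 2.62, 2.11, 2.17 and 3.45 in the sham mice and 4.53, 3.79, 4.88 and 2.59 in the FA-sham mice. It went from 1.45 over a median of 1.98 to 3.46 in the DOXO mice, and from 1.31 over 1.95 to 3.22 in the FA-DOXO mice. At a like array SD the mice with DOXO were mostly below those without, and within a group the value was mostly lower on the wide arrays, so that the groups overlapped.

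Averaged over both diets, Cox7a1 minus Cox7a2 fell by 1.20 with DOXO, a difference of -1.20 ± 0.22 or 2.30-fold, and its adjusted p of 0.0267 in limma was under 0.05. The difference was -0.84 ± 0.32 on placebo (adjusted p = 0.278) and -1.57 ± 0.31 under FA (adjusted p = 0.164), of which the second was past the unadjusted threshold, and the test of the difference between these 2 values did not pass (interaction -0.72 ± 0.45, adjusted p = 0.657 in limma). Without the covariate the placebo value was -0.47, after scaling the arrays to a shared SD -0.18, and over its 17 other settings it stayed below 0, from -1.15 to -0.18, and passed the threshold in 3. The value under FA was -1.78 without the covariate. It stayed between -2.22 and -1.02 over its 17 other settings and kept the call in 16. The other setting was wide arrays alone at -1.02, with 1 FA-sham mouse. Median centring cancels within an array and both genes have 1 cluster, so the settings for centring and choice of cluster repeat the main value. The averaged difference was -1.13 without the covariate (adjusted p = 1.00), -1.17 with the array SD and its square (adjusted p = 0.00778), -0.87 among wide and -1.496 among narrow arrays. Over its 16 other settings the adjusted p ran from 0.00778 to 1.00. Leaving out each mouse gave -1.35 to -1.08. Cox7a2 on its own had signals of 11.01, 10.76, 10.92 and 8.30 in the sham mice and of 7.03, 8.31, 6.87 and 9.87 in the FA-sham mice. They went from 7.82 over a median of 9.32 to 11.26 in the DOXO mice. In the FA-DOXO mice they went from 7.05 over 9.32 to 10.76, so that both pairs of groups overlapped. FA-sham replicates 1 and 3, with the highest pair differences of 4.53 and 4.88, had Cox7a2 near their array medians of 6.66 and 6.63. Leaving out FA-sham replicate 3 gave a pair difference of -1.33 under FA. How far signals near the array median raise the pair difference was not tested. Cox7a2 had an averaged difference of 0.25 ± 0.31 (adjusted p = 0.899 in limma), with -0.16 ± 0.46 on placebo and 0.66 ± 0.45 under FA. Without the covariate these were 0.09, -0.92 and 1.097.

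**Figure D4:**
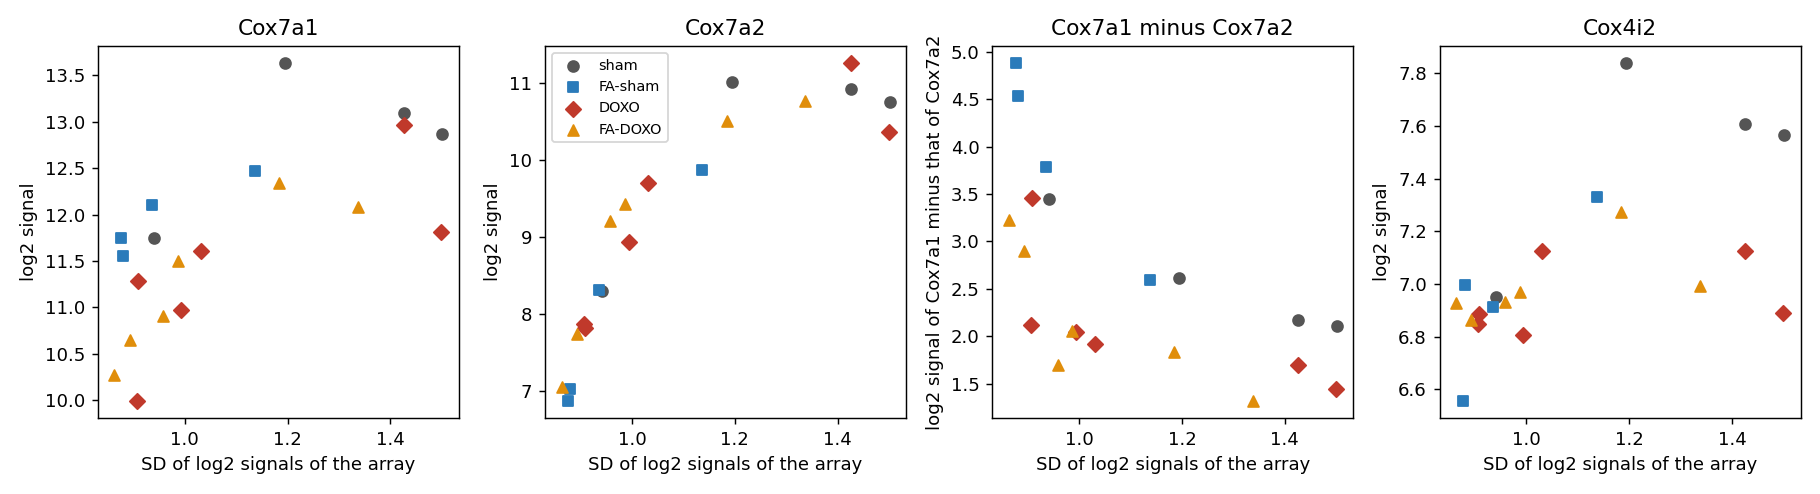
Log2 signals of Cox7a1, Cox7a2 and Cox4i2, and the within-array difference Cox7a1 minus Cox7a2, on 20 arrays against the array SD, with each point a mouse. Cox7a1 of DOXO and FA-DOXO mice lies mostly below that of sham and FA-sham mice at a like array SD, Cox7a2 of the 4 groups lies along a shared curve, and the difference between them is shifted down.

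The other 3 pairs did not pass the threshold in any of the 6 comparisons. Cox8b minus Cox8a had an averaged difference of -0.36 ± 0.18 (adjusted p = 0.621 in limma) and means of 3.44 in sham, 3.96 in FA-sham, 3.35 in DOXO and 3.48 in FA-DOXO animals. Cox6a2 minus Cox6a1 had 0.25 ± 0.23 (adjusted p = 0.830), with means of 3.19, 2.19, 2.91 and 2.80 in the same order. Cox4i2 minus Cox4i1 had -0.37 ± 0.28 (adjusted p = 0.773). Without the covariate these 3 were at -0.29, 0.17 and -0.27. Of the other muscle forms on their own, Cox6a2 had an averaged difference of 0.21 ± 0.30 (adjusted p = 0.911 in limma) and Cox8b of -0.34 ± 0.25 (adjusted p = 0.754), and without the covariate 0.03 and -0.43.

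**Figure D5:**
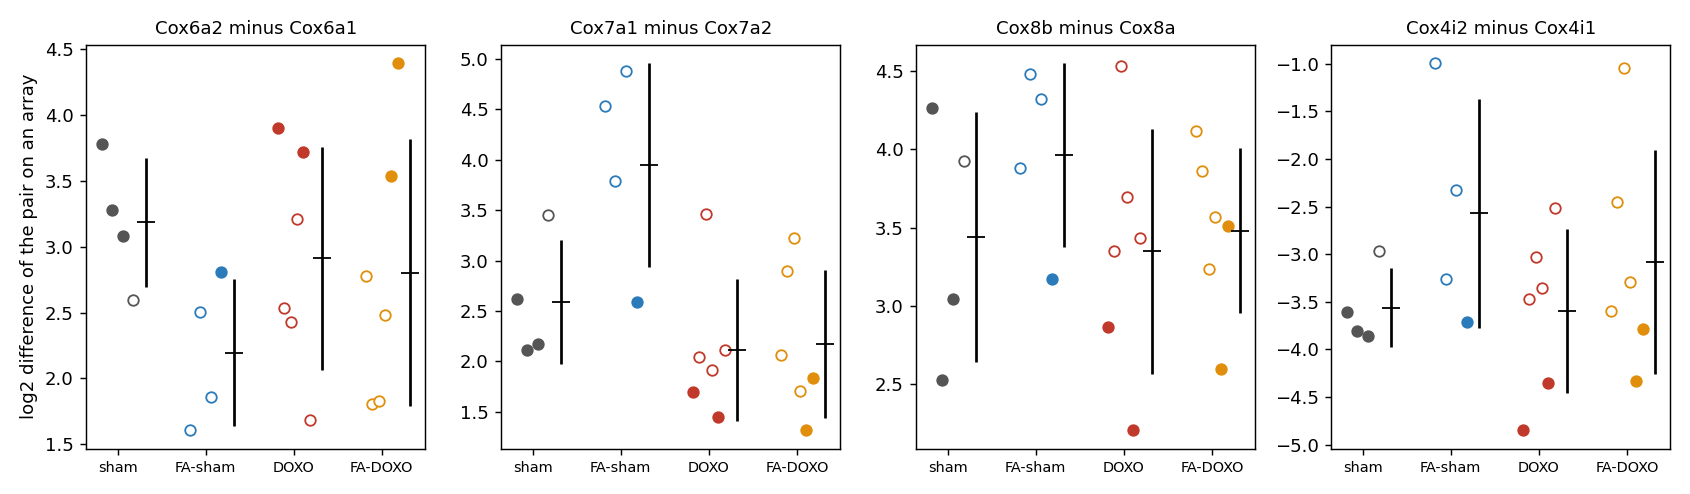
Within-array log2 differences of the 4 subunit pairs of complex IV in the 4 groups, with filled points for wide and open points for narrow arrays, and a bar at the mean with 1 SD (n = 4, 4, 6 and 6). Cox7a1 minus Cox7a2 has means of 2.59, 3.95, 2.11 and 2.17, and within each group the narrow arrays are mostly higher, so the groups are to be read at a like kind of array.

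The promoters of the genes with unequal change are shown for their sequence, from RefSeq on GRCm38.p6, 250 bases before to 50 after the start of the gene, 5′ to 3′ on the strand of the gene. Cox7a1 lies on chr7:30183921-30184220 (plus strand), Cox7a2 on chr9:79759804-79760103 (minus strand), and Sdhd, shown because it holds the 2 elements searched for that are best known from respiratory chain genes, on chr9:50603800-50604099 (minus strand). Capitals mark the matches.
Cox7a1: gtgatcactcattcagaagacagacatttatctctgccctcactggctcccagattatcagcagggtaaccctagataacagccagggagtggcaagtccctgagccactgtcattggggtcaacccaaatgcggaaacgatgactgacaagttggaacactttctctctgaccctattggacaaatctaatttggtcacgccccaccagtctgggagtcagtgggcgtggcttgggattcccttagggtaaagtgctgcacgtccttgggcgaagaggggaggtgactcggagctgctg
Cox7a2: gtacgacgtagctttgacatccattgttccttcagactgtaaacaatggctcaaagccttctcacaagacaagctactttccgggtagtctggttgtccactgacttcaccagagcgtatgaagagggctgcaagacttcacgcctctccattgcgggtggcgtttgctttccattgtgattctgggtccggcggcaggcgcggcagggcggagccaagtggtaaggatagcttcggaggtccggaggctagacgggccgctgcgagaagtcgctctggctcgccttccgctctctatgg
Sdhd: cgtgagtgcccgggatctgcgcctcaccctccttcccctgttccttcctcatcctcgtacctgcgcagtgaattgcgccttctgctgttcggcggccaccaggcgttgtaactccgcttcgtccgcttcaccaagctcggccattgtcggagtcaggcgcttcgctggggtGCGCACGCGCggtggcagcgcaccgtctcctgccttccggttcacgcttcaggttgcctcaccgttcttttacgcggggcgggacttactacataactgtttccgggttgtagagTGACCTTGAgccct
Searched on either strand were the motif of NRF1, the letters TNAAGGTCA of the estrogen-related receptors (ERR) and CCATNTT of YY1, and none of these contains another. In Sdhd the NRF1 match is the first run of capitals and the ERR match the second. Of the 34 genes 24 had a promoter in the table. These 24 genes had 27 promoters, since some have several starts. The NRF1 motif was found in 7 of the 27 (25.9%), those of Sdha, Sdhd, Uqcrc1, Cox6a1, Atp5c1, Atp5h and Atp5o, against 4.6% of 32851 promoters of the same length. ERR letters were in 1 of 27 (3.7%), that of Sdhd, against 1.28%, and YY1 letters in 4 of 27 (14.8%) against 16.1%. None of the 3 was in the windows of Cox7a1 and Cox7a2.

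FA alone was compared in the mice without DOXO. With the covariate 0 of 34 genes passed the threshold between FA-sham and sham, where 1.83% of all clusters did, and the median difference was -0.33 against 0.07 over all clusters. Without it the median was -1.84 against 0.19 with 34 of 34 genes below 0, where 37.5% of all clusters were, and 4 genes fell, Cycs by 1.54, Cox6c by 1.71, Cox7b by 1.71 and Cox4i2 by 0.54, where 4.35% of all clusters passed and 0.552% fell. These 2 groups differ most in the kind of array, with 3 of 4 wide in sham and 1 of 4 in FA-sham. Cycs was at 10.96, 12.53, 11.39 and 12.94 in the FA-sham mice, against 12.57 to 14.13 in the sham mice, and its difference with the covariate was -0.80 ± 0.43 (adjusted p = 0.678 in limma). Cox6c, a structural subunit of complex IV, was at 10.67, 12.66, 11.12 and 13.09 against 14.29, 13.75, 13.81 and 12.53, and Cox7b, another, at 10.12, 12.12, 10.79 and 12.69 against 13.79, 13.30, 13.34 and 12.12. Cox4i2 was at 7.00, 6.91, 6.56 and 7.33 against 7.84, 7.57, 7.61 and 6.95. With the covariate Cox6c was at -0.84, Cox7b at -0.86 and Cox4i2 at -0.37, none past the threshold. In each of the 4 genes the sham mouse on a narrow array was the lowest of its group, the FA-sham mouse on a wide array was the highest of its group, and the groups overlapped there.

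Between FA-DOXO and DOXO, the comparison of FA in injected mice, 0 of 34 genes passed with or without the covariate, where 1.11% and 0.158% of all clusters did. The median difference was 0.10 with it and -0.37 without it. Cox7a1 differed by 0.11 ± 0.29 (adjusted p = 0.971 in limma) and Cox4i2 by 0.10 ± 0.12 (adjusted p = 0.921), and without the covariate by -0.15 and 0.05. The interaction, which asks whether the DOXO difference changed with FA, passed in 0 of 34 genes, where 1.78% of all clusters did. Its median was 0.43 with and 1.41 without the covariate, and the smallest p was that of Cox4i2, at 0.47 with an adjusted p of 0.555 in limma.

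The other genes of the pathway were taken as lists. Of 24 further subunits of these complexes 16 were measured, and between DOXO and sham 0 passed, with a median of -0.05. The smallest p values were those of Atp5k (-0.49) and Atp5e (-0.45) of complex V and of mt-Co2 (-0.31), the mitochondrially encoded subunit 2 of complex IV. Of 37 assembly factors 32 were measured and 3 fell and 1 rose, where 1% of all clusters fell and 3.14% rose, with a median of -0.19. Those that fell were Bcs1l, which inserts the Rieske protein into complex III, by 0.67, Hccs, which attaches haem to cytochrome c, by 0.47, and Sco1, a copper chaperone of complex IV, by 0.33, with adjusted p from 0.205 to 0.224 in limma. Sdhaf4, an assembly factor of complex II, rose by 0.22 (adjusted p = 0.198). Of 17 regulators 1 fell, Tfb1m, which methylates mitochondrial ribosomal RNA, by 0.48 (adjusted p = 0.190), and the median was -0.06. Without the covariate 0 genes of these 3 lists passed, where 1.05% of all clusters did. Tfam, which packages and transcribes mitochondrial DNA, differed by -0.38 and Nrf1 by 0.26. None of the 34 measured complex I genes passed, with a median of -0.12 (-0.84 without the covariate), beside -0.15 (-0.81) for the 34 genes of complexes II to V and cytochrome c.

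Markers of other cells are given for the same comparison, in which 3.14% of all clusters rose and 1% fell with the covariate and 1.05% passed without it. With the covariate 3 of 10 macrophage markers rose between DOXO and sham, among them Lyve1 by 0.55 (adjusted p = 0.0804 in limma), and 4 of 9 neutrophil markers rose, among them Ngp by 1.40, S100a8 by 1.35 and Retnlg by 1.11. Without the covariate 0 of 10 macrophage and 4 of 9 neutrophil markers rose. The mean over the neutrophil list ran from 5.59 to 6.47 in sham and from 6.44 to 6.83 in DOXO mice, near or below the array medians. The median difference of this list was 0.26 on wide arrays alone and -0.02 on narrow arrays alone, the latter with 1 sham mouse. Its median slope on the array SD was -0.85. For the macrophage list the mean ran from 6.68 to 7.56 in sham and from 6.72 to 7.76 in DOXO mice. The median difference of the macrophage list was 0.35 on wide and 0.11 on narrow arrays alone, the latter again with 1 sham mouse. Of 17 cardiomyocyte markers 1 rose, Actn2 by 0.96 (-0.36 without the covariate). Of the 17, 11 were below 0, and the median was -0.06. Without the covariate 17 of 17 were below 0, with a median of -0.98. The list mean ran from 9.25 to 12.63 in sham and from 8.63 to 12.45 in DOXO mice. Of the remaining lists, 2 of 10 skeletal muscle, 1 of 9 adipocyte and 1 of 9 T, NK and B cell markers rose, 1 of 4 erythroid and 1 of 9 smooth muscle and pericyte markers fell, and 0 of 10 endothelial, 0 of 9 fibroblast and 0 of 5 atrial markers passed. Skeletal muscle also makes Cox6a2, Cox7a1 and Cox8b, and its marker list had means of 5.83 to 6.76 over the sham and FA-sham mice, near the array medians. The part of these cells in the differences of Cox7a1 and Cox4i2 was not tested.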

How the data were processed

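RNA from the left ventricle of 20 mice was hybridised to Affymetrix Mouse Gene 1.0 ST arrays by the authors, who extracted it with a kit for fibrous tissue and analysed it with R 2.14.2 and Bioconductor. The deposited table holds log2 signals of 34760 transcript clusters, and for its background correction and normalization the sources read here give no method. Groups were taken from the sample labels. The members and gene lists were chosen with earlier results of these data known.

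Differences were fitted with limma 3.58.1 in R 4.3.3 on all clusters and all 20 arrays, with a mean per group and the array SD as a covariate, and p-values were adjusted by Benjamini-Hochberg over all clusters (plus the 4 subunit pairs where a pair is given). A call is an unadjusted p under 0.01. The fit was also run on simulated data with 200 changed clusters, whose outcome is not given here, and no result above rests on it. Figures were drawn with matplotlib 3.10.9 in Python 3.11.15. The number of arrays limits the precision, since such signals carry no counts.

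For the gene with the smallest p in each complex, for genes past the threshold and for Cox7a1 and Cox7a2, every value is given in groups of 4 mice and the lowest, median and highest in groups of 6, in the comparison concerned, and from other pathway lists up to 3 genes were named, apart from Hccs, named after its values were seen. Alternatives covered the covariate, normalization, samples, weights, filters, pairing and each mouse left out.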

Additional observations from a re-analysis of the deposited data

Results flagged for a closer look

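In groups of 4 or 6 mice, the highest or lowest value was tested for a gap to its nearest neighbour that is large for the range of the group (Dixon's criterion). The criterion was applied in 152 tests on the same 20 arrays, which are not independent, so no rate by chance is given. It marked 15 tests. Of these, 11 were the sham mouse on the only narrow array of its group (sham replicate 4), which was the lowest, with 9.57 for Sdhb, 10.55 for Uqcrb, 9.56 for Uqcrh, 8.26 for Cyc1, 9.91 for Cox4i1, 9.16 for Cox6a2, 8.30 for Cox7a2, 9.55 for Atp5b, 11.08 for Atp5c1, 10.77 for Atp5h and 10.24 for Atp5j. The FA-sham mouse on the only wide array of its group (replicate 4) was the highest for Sdha at 10.21 and for Atp5a1 at 11.58. FA-DOXO replicate 6 was the highest of its group for Cox4i2 at 7.28, and DOXO replicate 3 was the highest for Cox7a1 minus Cox7a2 at 3.46. The part of the array SD in these gaps was not tested.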

How the results depend on the processing

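Numbers in brackets are the clusters called in either direction among all 34760. Between DOXO and sham, 1 gene was called in place of 2 in several settings. It was Cox4i2 without a covariate (364), with the array IQR (1280) or with wide or narrow as a block (536). It was also Cox4i2 after scaling to a shared SD (266) and with trend and robust moderation (1469). After quantile normalization (346) it was Cox7a1. On wide arrays alone (351), with array weights (981) or with only the compared groups (550) 0 were called. Cox7a1 minus Cox7a2 was also called between DOXO and sham, making 1 pair, with the array SD and its square or with the complex I mean. The last is a covariate chosen after seeing the data. Under FA, 1 gene (Cox7a1, lower) was called with the SD and its square (481), quantile normalization (198), scaling (206), array weights (824) or only the compared groups (635). With the complex I mean (174) 2 were called, Cox7a1 lower and Atp5d higher. Between FA-sham and sham the settings called different genes. Without a covariate (1512) 4 were called, all lower with FA. With the SD and its square (913) the 2 called were Sdhd and Atp5h, 1 higher and 1 lower. With only the compared groups (190) the 2 were Sdha and Sdhd, both higher. After quantile normalization (851) or with the complex I mean (100) the 1 gene was Atp5h, and after scaling (1078) Cox4i2, each lower. The median between FA-sham and sham was -1.84 without a covariate and -1.17 after scaling. The interaction median was 1.41 without a covariate. In the average over diets 2 genes were called with the SD and its square (1350), Cox4i2 and Cox7a1, both lower. With the complex I mean (563) the 2 were Cox7a1, lower, and Atp5d, higher. After scaling 0 pairs were called in the average. With array weights the DOXO minus sham difference turned to 0.28 for Sdhb, 0.16 for Uqcr11, 0.34 for Atp5h and 0.20 for Cycs, which was also 0.0097 on narrow arrays and 0.066 after scaling. The averaged Cox4i2 difference was 0.034 on narrow arrays. The causes were not tested.

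With each mouse left out, 0 to 2 genes were called between DOXO and sham. The 0 came without sham replicate 1 (1697 of all clusters called) or DOXO replicate 5 (952). Between these groups 0 to 1 pairs were called (1 without DOXO replicate 3), and the median was -0.27 to 0.16. Atp5h ran from -0.46 to 0.058, and was above 0 without sham replicate 1 (0.058) or DOXO replicate 5 (0.015). Under FA 0 to 1 genes were called (median -0.01 to 0.56), with 295 to 436 of all clusters where it was 1. Between FA-sham and sham 0 to 1 were called (median -0.71 to -0.01), the 1 without sham replicate 4 (1562 of all clusters). For the interaction 0 to 1 were called (median 0.08 to 0.73), the 1 without sham replicate 4 (1644) or FA-sham replicate 4 (599). In the average 1 to 2 were called, the 2 without sham replicate 4 (1639) or FA-sham replicate 3 (817).

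Same-numbered samples deviated together (r over 0.1) in 12 of 26 pairs, with r from -0.86 to 0.84. After the array SD was taken out they did so in 14 of 26, with r from -0.45 to 0.62. The numbers were not taken to pair mice in the main fit, and fits with the replicate number as a block are given beside it. With the replicate block and the array SD, 0 genes and 1 pair were called between DOXO and sham, where 769 of all clusters were. Between FA-sham and sham 1 gene was called in that fit (542 of all clusters), Sdhd, which was higher with FA. With the block and no covariate 1 gene, Cox4i2, was called between DOXO and sham (444 of all clusters, median -1.22). Cox7a1 minus Cox7a2 was -0.24 there. The median was -1.84 between FA-sham and sham and 1.41 for the interaction. In the average 0 genes and 0 pairs were called (158 of all clusters).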
